A study of Homo sapiens with 12 samples.

Results

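Voltage-gated and related ion channels made up 65 of the 16389 genes counted in HepG2 cells. The members were the genes whose symbols belong to the KCN (potassium), SCN (sodium), CACN (calcium), CLCN (chloride), HCN (pacemaker) and TRPC, TRPM or TRPV families, with no use of their measured levels. They comprised 11 pore genes of voltage-gated potassium channels, 6 potassium channel auxiliary genes, 3 genes of calcium-activated potassium channels, 4 inward rectifiers, 4 tandem-pore (KCNK) channels, 10 sodium channel genes, 4 calcium channel pore genes, 7 calcium channel auxiliary genes, 6 CLC genes, 2 HCN genes, 1 TRPC gene, 4 TRPM genes and 3 TRPV genes. HepG2 is an established line from a human hepatocellular carcinoma, and the labels give no genetic change or added transgene. RNA was sequenced from 12 samples in 4 groups of 3, namely low glucose (LG, normoglycaemic medium, 5.5 mM), high glucose (HG, 20 mM), and the same media followed by valproic acid (VPA), here called LGV and HGV. Cells spent 48 h in either medium, and the treated ones then received 1 mM VPA for 12 h more, and the harvest time of the untreated cells relative to those hours is not given in the sources used here. The labels call the samples replicates without saying that they were separate cultures, so p-values measure the spread between these samples, which may be technical. In bulk RNA, fewer cells of a type and less RNA per cell cannot be told apart.

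Ion channels are membrane proteins that let selected ions cross down their gradients. In nerve and muscle, voltage-gated sodium and calcium channels open when the membrane depolarises and potassium channels bring it back, while auxiliary subunits set where and how readily the pores open. Hepatocytes do not fire action potentials, and in them potassium and chloride channels are known for setting the resting potential and cell volume, TRP channels for calcium and magnesium entry, and several CLC proteins work inside the cell as exchangers of chloride and protons in endosomes and lysosomes. VPA is an antiepileptic drug that inhibits histone deacetylases and also acts on sodium channels themselves.

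The promoters of a few members are shown because these genes had among the largest differences in the list or, for SCN1A, a difference with glucose. They were chosen after the values were seen. The RefSeq promoter table (GRCh38.p14) held a window for 47 of the 65 members, and the 250 bases before the start of the furthest upstream window are given from 5′ to 3′ on the gene's strand. Capitals mark each match to the GC box GGGCGG, a short element common in GC-rich promoters, or to its complement CCGCCC, with overlapping matches counted. The windows lie at chr7:150978322-150978571 (minus strand) for KCNH2, chr2:17877597-17877846 (plus) for KCNS3, chr19:17952007-17952256 (plus) for KCNN1, chr19:589631-589880 (plus) for HCN2 and chr2:166149162-166149411 (minus) for SCN1A.
KCNH2: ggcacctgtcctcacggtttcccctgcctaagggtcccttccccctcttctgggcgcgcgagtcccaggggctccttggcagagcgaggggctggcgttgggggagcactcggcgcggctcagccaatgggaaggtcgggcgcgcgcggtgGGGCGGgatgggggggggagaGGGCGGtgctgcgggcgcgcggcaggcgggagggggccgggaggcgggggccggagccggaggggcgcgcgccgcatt
KCNS3: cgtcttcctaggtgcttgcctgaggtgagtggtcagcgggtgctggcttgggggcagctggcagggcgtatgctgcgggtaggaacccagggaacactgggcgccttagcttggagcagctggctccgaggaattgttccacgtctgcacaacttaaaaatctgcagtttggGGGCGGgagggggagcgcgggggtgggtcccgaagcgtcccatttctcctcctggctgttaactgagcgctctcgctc
KCNN1: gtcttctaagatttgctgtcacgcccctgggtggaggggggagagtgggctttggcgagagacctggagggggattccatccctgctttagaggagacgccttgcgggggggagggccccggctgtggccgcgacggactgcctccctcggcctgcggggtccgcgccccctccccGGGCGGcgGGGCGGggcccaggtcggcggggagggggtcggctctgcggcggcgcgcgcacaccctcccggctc
HCN2: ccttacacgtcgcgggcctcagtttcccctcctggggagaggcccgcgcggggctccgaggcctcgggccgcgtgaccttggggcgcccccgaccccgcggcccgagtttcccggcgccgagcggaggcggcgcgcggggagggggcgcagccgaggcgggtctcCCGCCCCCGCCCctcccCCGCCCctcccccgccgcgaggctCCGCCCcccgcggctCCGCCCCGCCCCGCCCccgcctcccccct
SCN1A: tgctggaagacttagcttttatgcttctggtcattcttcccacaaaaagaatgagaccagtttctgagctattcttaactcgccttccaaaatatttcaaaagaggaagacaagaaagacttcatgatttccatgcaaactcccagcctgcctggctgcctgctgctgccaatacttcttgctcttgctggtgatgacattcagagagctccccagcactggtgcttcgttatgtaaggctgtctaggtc
The printed stretches held 2 GC boxes for KCNH2, 1 for KCNS3, 2 for KCNN1, 7 for HCN2 and 0 for SCN1A. The stretch of SCN1A had 2 CpG dinucleotides and 45.6% G and C, against 39 CpG and 84.0% in that of HCN2.

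Depth and cell identity were checked over the whole table. Between 29798442 and 45572694 reads were counted per library, so that 3 reads, taken as the floor, stood for 0.0713 to 0.112 CPM (reads brought to a common library size with TMM factors). Intervals and floors cover counting error only. All 8 hepatocyte markers examined were in the table, with a summed level of 47400 to 52700 CPM in LG, 46500 to 54900 in HG, 36500 to 37200 in LGV and 41300 to 54900 in HGV. Of 7 neuronal markers, RBFOX3 and TUBB3 were in the table, with sums of 2.7 to 4.48 CPM over the 12 libraries, and SNAP25, SYT1, STMN2, MAP2 and NEFL were not. Of 5 fibroblast markers only COL1A1 was in the table, and it rose with VPA from 0.28 to 0.419 CPM in HG to 1.24 to 2.64 CPM in HGV and from 0.125 to 0.374 CPM in LG to 0.747 to 1.44 CPM in LGV. Of 3 endothelial markers VWF and CDH5 were present, with a sum of 2.21 to 4.85 CPM over the 12 libraries, and CDH5 stood at 0.41 ± 0.146 CPM (SD, n = 3) in HG and 1.29 ± 0.263 CPM in HGV. The part of these markers' cells in the channel results was not tested.

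As a group, the channel genes were expressed at low levels and took more reads with VPA. Their summed level was 649 ± 63.3 CPM (SD, n = 3) in LG, 514 ± 28.5 in HG, 827 ± 18.8 in LGV and 731 ± 56.5 in HGV. The lowest LGV library (810 CPM) stood above the highest LG library (701 CPM), and the lowest HGV library (666 CPM) above the highest HG library (545 CPM). Members with a group mean of at least 1 CPM numbered 36 in LG, 37 in HG, 50 in LGV and 52 in HGV, and the median member stood at 1.14, 1.32, 3.7 and 3.61 CPM. In LG and in HG 3 members each had no more than 3 reads in any library, and no member was that low in LGV or HGV. These counts depend on the table, which holds only genes averaging at least 10 reads over the 12 libraries. A member near absence in both untreated groups is in it only when the VPA libraries carried its reads. Genes that VPA took from a low level to absence can be missing. The same counts over all genes are not given here.

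Levels between genes were compared per length, as CPM per kilobase of the union of a gene's annotated exons. By that measure, averaged over the 12 libraries, 2 chloride and proton exchangers of lysosomes and endosomes led the list. Over the 12 libraries CLCN7, the lysosomal exchanger, averaged 10.8 CPM per kilobase, CLCN3 8.23, the calcium-permeable channel gene TRPV2 7.48, CACNA2D4, an auxiliary subunit of calcium channels, 6.92, CLCN6 6.4 and CLCN5 5.21. KCNJ10, an inward rectifier, followed with 3.3, the sodium channel gene SCN9A with 3.17, HCN3 with 3.06, the T-type calcium channel gene CACNA1H with 2.68 and TRPM7, which forms a magnesium-permeable channel joined to a kinase, with 2.65. CLCN7 averaged 15.4 CPM per kilobase in LG against 9.3 for CACNA2D4 and 8.98 for CLCN3, while in HG it averaged 7.79 against 6.09 for CLCN6, 5.98 for CLCN3 and 5.97 for TRPV2. In HGV TRPV2 had the highest mean, at 8.64 against 7.79 for CLCN7, 6.82 for CLCN6 and 6.52 for CLCN3, and in LGV CLCN7 (12.1) and CLCN3 (11.5) led. In HG the libraries of CLCN6, CLCN3 and TRPV2 overlapped, in HGV those of TRPV2 and CLCN7, and in LGV those of CLCN7 and CLCN3. These neighbours did not separate beyond their spread.

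**Figure D1:**
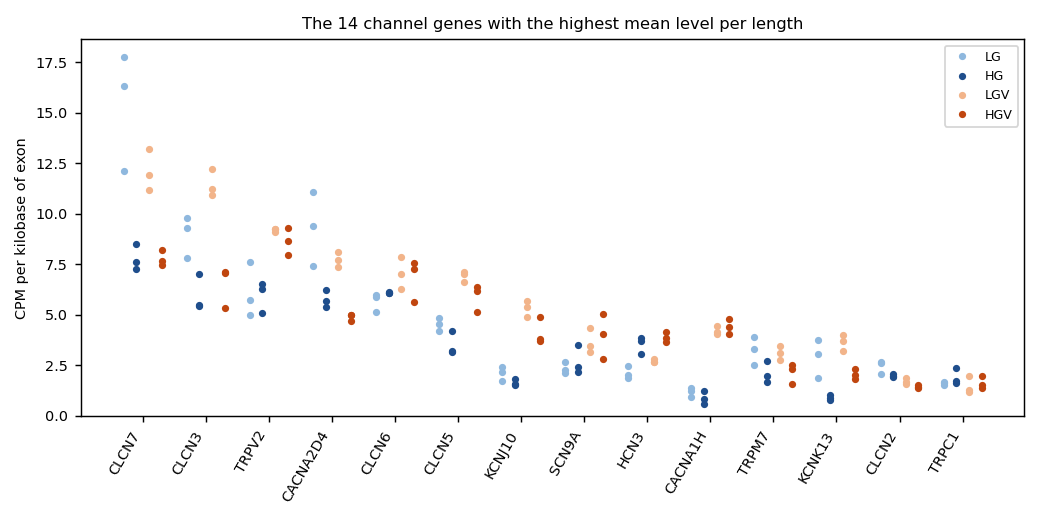
Level per exon length of the 14 channel genes with the highest mean over the 12 libraries, in order of that mean on the x axis, with CPM per kilobase of exon on a linear y axis starting at 0. Each point is a library (n = 3 per group, colours for LG, HG, LGV and HGV), and CLCN7, with group means of 15.4, 7.79, 12.1 and 7.79, stands highest in LG.

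VPA raised a large share of the channel genes in both media. Between HGV and HG, 64 members were tested and 36 were higher (56.2%) at an FDR of 0.05 or less in edgeR's quasi-likelihood test, against 25.8% of the 16188 genes tested. Only 3 members were lower (4.69%), against 20.2% of all genes. Between LGV and LG, 38 of 62 members were higher (61.3%) and 1 was lower (1.61%), against 21.7% and 19.9% of the 15944 genes tested. The median log2 fold change of the members was 0.76 in either medium, and that of all genes was 0.02 in HG medium and -0.01 in LG medium. KCNS3, which had no read in LG, lies above the LG-medium median of 0.76 even at its lower bound, so its uncertain value cannot move that median.

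Part of this count was fixed by the filter, since a gene that is near absence without VPA enters the test only when VPA raises it. Of the 64 members tested in HG medium, 13 averaged under 10 reads in the untreated libraries, and 12 of them were higher. In LG medium 12 members were of this kind and all 12 were higher. When genes were instead required to average 10 reads in the 3 untreated libraries, an alternative chosen after seeing the data, 24 of 51 members were higher with VPA in HG medium (47.1%) and 3 were lower, against 24.2% higher and 19.2% lower among 15373 genes, with a median of 0.62. In LG medium 27 of 50 were then higher (54.0%) and 1 was lower, against 19.5% and 19.0% of 15309 genes, with a median of 0.63. This filter does not undo that of the table itself, which holds only genes averaging at least 10 reads over the 12 libraries. Sorting genes by the untreated level in the other medium, members under 1 CPM in LG were higher with VPA in HG medium in 20 of 28 cases (71.4%, all genes 40.4%), those from 1 to 10 CPM in 10 of 22 (45.5%, all genes 29.2%) and those above in 6 of 14 (42.9%, all genes 18.7%). Sorted by HG, the corresponding counts in LG medium were 19 of 25 (76.0%, all genes 36.7%), 12 of 24 (50%, all genes 25.1%) and 7 of 13 (53.8%, all genes 15.2%). These bands kept the first filter. Sorting therefore does not remove the members, or other genes, that entered the test only when VPA raised them, and the lowest band is affected most.

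By medium, 32 members were higher with VPA in both, and CLCN2 was lower in both. The share of all genes called in both media is not given here, so the 32 are not read as a trait of the channel genes. Some of the 32 entered the tests only because VPA raised them. KCNAB2 and KCNK13 were higher in HG medium and did not pass in LG medium, and KCNH6 and KCNK9 were higher in HG medium and too low to be tested in LG medium. CLCN3, CLCN6, SCN1A, SCN3A, SCN3B and TRPM6 were higher in LG medium and did not pass in HG medium, CLCN4 and KCNMB3 were lower in HG medium and did not pass in LG medium, and 18 members passed in neither. Of the 6 members higher in LG medium and not in HG medium, all but SCN3B lost that call under 4 to 7 of the alternatives run. The remaining members were KCNIP4, which did not pass in HG medium and was not tested in LG medium, and KCNK7, which was not tested in HG medium and did not pass in LG medium. A pass in a single medium does not show that the responses differ, and the test of that difference is given with the interaction.

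**Figure D2:**
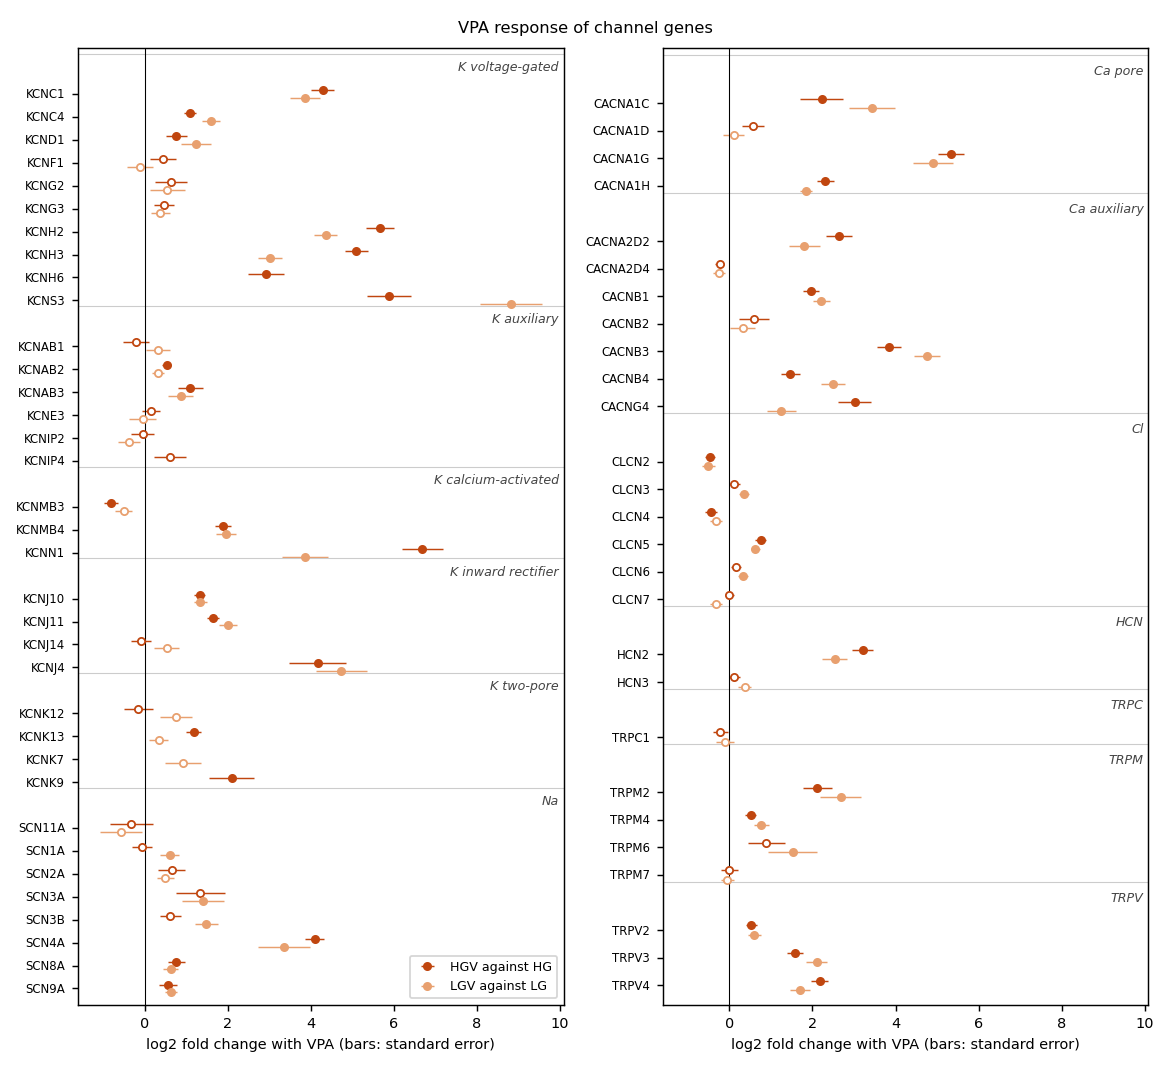
Log2 fold change with VPA of channel genes, by family, in HG medium (HGV against HG, dark) and LG medium (LGV against LG, light), with bars for the standard error. Filled points had an FDR of 0.05 or less and open points did not. The point of KCNS3 in LG medium depends on the prior count because the gene had no read in LG, and most points of the potassium, sodium and calcium families lie to the right of 0 while those of the chloride family lie between -0.51 and 0.75.

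Among the voltage-gated potassium channel pores, 8 of 11 members were higher with VPA in HG medium and 7 of 10 in LG medium, and none was lower. Beside this and the later family counts, 25.8% of all genes tested were higher and 20.2% lower in HG medium. In LG medium these shares were 21.7% and 19.9%. Family counts, too, can include members that entered the test only when VPA raised them. KCNH2, which encodes the hERG channel of cardiac repolarisation, stood at 0.785, 0.923 and 0.408 CPM in LG, at 0.0317, 0.419 and 0.224 CPM in HG, at 11.7, 16.0 and 15.2 CPM in LGV and at 11.8, 11.3 and 12.2 CPM in HGV. Every treated library was above every untreated library by more than 10 CPM. The log2 fold change was 5.67 (standard error 0.34, FDR 9.42e-08) in HG medium and 4.36 (0.27, FDR 3.51e-08) in LG medium, and other fold changes are followed in the same way by their standard error and FDR. Its relative KCNH3, a brain channel of the same EAG family, had 0.486, 0.349 and 0.332 CPM in LG, 0.19, 0.239 and 0.112 in HG, 3.6, 2.92 and 2.8 in LGV and 5.3, 6.87 and 6.56 in HGV. The HGV libraries were all above the LGV libraries, and the log2 fold change with VPA was 5.10 (0.28, FDR 4.76e-08) in HG medium and 3.02 (0.29, FDR 1.68e-06) in LG medium. KCNH6, the third EAG-family member, reached 0.925 ± 0.092 CPM in HGV from 0.116 ± 0.0739 in HG, a log2 fold change of 2.92 (0.43, FDR 0.000145), and averaged 0.226 CPM in LGV.

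KCNC1 and KCNC4 encode fast potassium channels of neurons, and both rose. KCNC1 went from 0.0748, 0.175 and 0.128 CPM in LG and 0.158, 0.359 and 0.224 in HG to 2.07, 2.08 and 1.68 in LGV and 5.7, 4.64 and 4.44 in HGV. No treated library overlapped an untreated one, and the log2 fold change was 4.29 (0.28, FDR 1.79e-07) in HG medium and 3.86 (0.37, FDR 1.66e-06) in LG medium. KCNC4 rose by 1.09 (0.15) and 1.60 (0.22) on the log2 scale.

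KCNS3 encodes a silent subunit that alters the channels it joins. It had no read in the 3 LG libraries and 0, 3 and 1 reads in HG, against 54, 40 and 73 reads in LGV and 69, 149 and 68 reads in HGV. Its level was 1.62 ± 0.325 CPM in LGV, at least 18.5-fold higher than the floor of 3 reads per LG library, and 2.55 ± 0.859 CPM in HGV, where the ratio of rates to HG was 66.3 (95% exact counting interval 25.6 to 245). The other silent subunits did not follow, as KCNF1, KCNG2 and KCNG3 passed in neither medium, with log2 fold changes from -0.11 to 0.63. KCND1, an A-type channel gene, had 0.76 (0.25, FDR 0.0257) in HG medium and 1.24 (0.36, FDR 0.0132) in LG medium, and both calls were lost without some libraries.

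**Figure D3:**
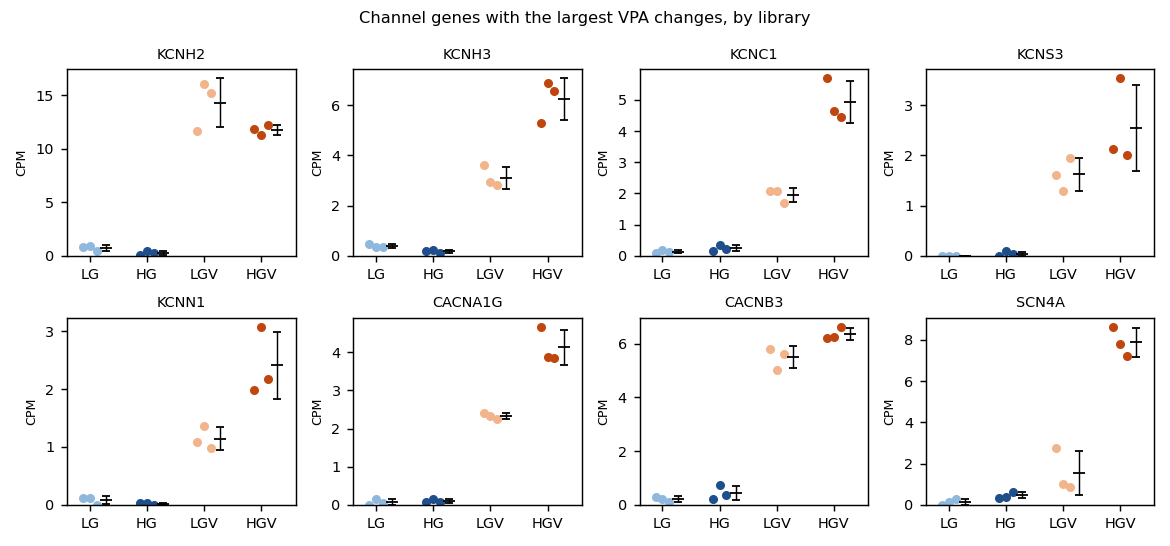
CPM in each library (points, n = 3 per group) with mean and SD (bars) for 8 of the channel genes with the largest VPA changes, on linear y axes starting at 0 and differing between panels. In each panel the LGV and HGV libraries stand above all LG and HG libraries, and in all panels but that of KCNH2 the HGV libraries also stand above the LGV libraries.

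Of the potassium channel auxiliary genes, 2 of 6 were higher in HG medium and 1 of 5 in LG medium. KCNAB3, a beta subunit, averaged 0.927 CPM in HG and 1.99 in HGV (log2 fold change 1.10, 0.30, FDR 0.00902), and 0.775 CPM in LG and 1.4 in LGV (0.87, 0.30, FDR 0.0311), the latter call being lost with DESeq2 and without LG replicate 1 or 2 or LGV replicate 1 or 3. KCNAB2, with the highest mean of the family, rose from 20.2, 24.1 and 22.7 CPM in HG to 31.9, 34.4 and 30.8 CPM in HGV, a log2 fold change of 0.53 (0.11, FDR 0.00207). In LG medium its fold change was 0.32 (FDR 0.09), with 1 pair of libraries in the opposite order. KCNAB1, KCNE3, KCNIP2 and KCNIP4 did not pass with VPA in the media where they were tested.

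The calcium-activated family held the largest ratio in HG medium and the largest fall. KCNN1, a small-conductance channel known for the slow afterhyperpolarisation of neurons, had 3, 5 and 0 reads in LG and 1, 1 and 0 in HG, against 36, 42 and 37 in LGV and 65, 129 and 74 in HGV. The ratio of rates between HGV and HG was 124 (95% exact counting interval 34.0 to 1030), and in LG medium the log2 fold change was 3.86 (0.55, FDR 5.51e-05). KCNMB4, the neuronal beta subunit of the large-conductance BK channel, rose by 1.88 (0.19) in HG medium and 1.96 (0.25) in LG medium. KCNMB3, another BK beta subunit, went the other way, from 6.72, 6.04 and 5.32 CPM in HG to 3.8, 3.11 and 3.35 CPM in HGV, with no overlap and a log2 fold change of -0.82 (0.17, FDR 0.00155). In LG medium it had 21.1, 17.4 and 10.7 CPM without and 10.8, 12.7 and 10.7 CPM with VPA, and the difference of -0.51 did not pass (FDR 0.0638). The exons of KCNMB3 overlap those of PIK3CA on the other strand and of the pseudogene LRRFIP1P1 on its own strand, and the strand setting of the counting is not stated, so its reads cannot be told apart from theirs.

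Inward rectifiers, which carry potassium near the resting potential, were higher in 3 of 4 cases in either medium. KCNJ10, the glial and renal channel Kir4.1, rose from 10.0, 11.5 and 9.44 CPM in HG to 30.5, 23.7 and 23.1 CPM in HGV and from 10.8, 15.1 and 13.6 CPM in LG to 30.5, 33.6 and 35.6 CPM in LGV. These log2 fold changes of 1.32 (0.14, FDR 1.16e-05) and 1.34 (0.15, FDR 6.08e-06) were close in size, and the groups did not overlap. KCNJ11, the pore of the ATP-sensitive channel of insulin-secreting cells, rose from 3.07, 3.02 and 3.14 CPM in HG to 9.63, 9.23 and 9.94 CPM in HGV (1.64, 0.14, FDR 1.99e-06) and by 2.01 (0.22, FDR 5.96e-06) in LG medium. KCNJ4 had 2 reads in all over the LG libraries and 3 over the HG libraries, against 60 in LGV and 64 in HGV. The ratio of rates was 31.3 (95% exact counting interval 8.29 to 264) in LG medium and 19.8 (6.47 to 98.4) in HG medium. KCNJ14 did not pass with VPA.

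Tandem-pore channels carry the background potassium leak. KCNK13, the highest of them, went from 1.84, 2.03 and 2.35 CPM in HG to 4.6, 5.33 and 4.23 CPM in HGV, a log2 fold change of 1.18 (0.18, FDR 0.000205). In LG medium it stood at 6.99, 8.61 and 4.29 CPM without and 7.38, 9.19 and 8.43 CPM with VPA, and the groups overlapped. KCNK9, the acid-sensitive channel TASK-3, rose in HG medium from 8, 11 and 1 reads to 19, 54 and 24 reads (2.1, 0.54, FDR 0.00698), and KCNK12 and KCNK7 did not pass where tested.

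Among the sodium channel genes, 4 of 10 were higher with VPA in HG medium and 7 of 10 in LG medium, and none was lower. The largest change in HG medium was that of SCN4A. This gene, the skeletal muscle channel Nav1.4, stood at 0, 0.125 and 0.281 CPM in LG, 0.349, 0.389 and 0.616 in HG, 2.76, 1.01 and 0.854 in LGV and 8.62, 7.8 and 7.21 in HGV. The lowest HGV library was more than 4 CPM above the highest LGV library, and the log2 fold change with VPA was 4.10 (0.23, FDR 6.17e-08) in HG medium and 3.36 (0.63, FDR 0.000612) in LG medium.

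Of the neuronal sodium channels, SCN9A (Nav1.7, of pain-sensing neurons) was the most highly expressed, at 31.7, 29.8 and 37.3 CPM in LG and 60.5, 44 and 48.5 CPM in LGV, a log2 fold change of 0.64 (0.14, FDR 0.00238). In HG medium it had 49.2, 30.1 and 33.4 CPM without and 56.8, 39.5 and 70.3 CPM with VPA, and the call (0.56, 0.21, FDR 0.0452) rested on overlapping groups and was lost when HG replicate 2 or 3 or HGV replicate 1 or 3 was left out. SCN8A rose by 0.76 (0.21, FDR 0.00928) in HG medium and 0.63 (0.18, FDR 0.0104) in LG medium, the latter call being lost without LGV replicate 2. SCN3B, a beta subunit, rose in LG medium by 1.48 (0.28, FDR 0.000599), from 0.636, 0.848 and 0.689 CPM to 2.22, 2.11 and 1.76 CPM, against 0.62 (FDR 0.0656) in HG medium. SCN2A and SCN11A passed in neither medium. On GRCh37 SCN3A (165944036 to 166060560), SCN2A (166051503 to 166248820), SCN1A (166841151 to 167005724) and SCN9A (167051695 to 167232511) lie in a row on chromosome 2, and their log2 fold changes with VPA in HG medium were 1.34 (FDR 0.0797), 0.65 (FDR 0.119), -0.06 (FDR 0.856) and 0.56 (FDR 0.0452). In LG medium they were 1.41 (FDR 0.0371), 0.50 (FDR 0.0592), 0.60 (FDR 0.0415) and 0.64 (FDR 0.00238), and the calls of SCN3A and SCN1A were each lost under 5 alternatives. SCN1A and SCN9A both share exon bases with SCN1A-AS1 on the other strand.

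Calcium channel pores and their partners rose in most cases. Of 4 pore genes, 3 were higher in each medium, and of 7 auxiliary genes, 5 were higher in each. CACNA1H, a T-type channel gene that opens near the resting potential, was the highest of the pores and stood at 11.7, 10.6 and 8.19 CPM in LG, 5.17, 10.5 and 7.31 in HG, 35.0, 35.9 and 38.4 in LGV and 41.3, 35.1 and 38.0 in HGV. The treated libraries were all at or above 35.0 CPM and the untreated ones all at or below 11.7 CPM. Its log2 fold change was 2.31 (0.20, FDR 2.11e-06) in HG medium and 1.85 (0.15, FDR 3.25e-07) in LG medium. CACNA1G, the other T-type gene, had 0, 6 and 2 reads in LG and 2, 5 and 3 in HG, against 80, 72 and 84 in LGV and 152, 163 and 131 in HGV. These amounted to log2 fold changes of 5.33 (0.31, FDR 8.03e-08) in HG medium and 4.91 (0.48, FDR 1.74e-06) in LG medium. Of the L-type genes, CACNA1C rose by 2.22 (0.51, FDR 0.00352) and 3.44 (0.55, FDR 0.000168), whereas CACNA1D did not pass, at 0.57 (FDR 0.109) and 0.10 (FDR 0.775). The exons of CACNA1D overlap those of CHDH on the other strand, and the difference between the L-type genes was not tested.

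The beta subunits bring calcium channel pores to the membrane. CACNB3 stood at 0.299, 0.225 and 0.102 CPM in LG, 0.222, 0.718 and 0.364 in HG, 5.82, 5.03 and 5.63 in LGV and 6.22, 6.25 and 6.62 in HGV. The log2 fold change was 3.85 (0.29, FDR 5.11e-07) in HG medium and 4.76 (0.32, FDR 6.97e-08) in LG medium, with no overlap. CACNB1 rose by 1.96 (0.19, FDR 4.16e-06) and 2.21 (0.20, FDR 8.69e-07), and CACNB4 by 1.47 (0.23, FDR 0.000235) and 2.49 (0.29, FDR 8.91e-06), in HG and LG medium. CACNB2 did not pass in either, at 0.59 (FDR 0.211) and 0.32 (FDR 0.424). CACNA2D2 rose by 2.63 (0.31) and 1.80 (0.37) and CACNG4 by 3.02 (0.40) and 1.25 (0.35). CACNA2D4, the auxiliary gene with the highest level, did not pass, and its 40.2, 46.3 and 42.5 CPM in HG stood against 37.2, 37.3 and 34.9 CPM in HGV (-0.24, FDR 0.0836).

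The chloride family behaved less uniformly, with 1 of 6 members higher and 2 lower in HG medium and 3 higher and 1 lower in LG medium. CLCN5, the endosomal exchanger of the kidney, rose from 48.1, 36.1 and 36.6 CPM in HG to 70.7, 59.1 and 73.2 CPM in HGV and from 48.1, 55.3 and 51.9 CPM in LG to 75.7, 81.5 and 80.2 CPM in LGV. Both differences, 0.75 (0.14, FDR 0.000637) and 0.62 (0.11, FDR 0.000451) on the log2 scale, were larger than the spread between replicates. CLCN2, a plasma membrane channel, fell from 16.2, 16.7 and 17.5 CPM in HG to 12.0, 11.6 and 12.9 CPM in HGV (-0.47, 0.12, FDR 0.00622) and from 22.9, 17.7 and 22.2 CPM in LG to 14.4, 13.4 and 16.0 CPM in LGV (-0.51, 0.15, FDR 0.0137), the latter call being lost with scaling by library size and without LG replicate 1 or LGV replicate 2. Its exons overlap those of FAM131A on the other strand. CLCN4 was lower in HG medium, at 9.54, 8.1 and 8.48 CPM in HG and 7.14, 6.13 and 5.88 CPM in HGV (-0.45, 0.15, FDR 0.0241), a call lost with scaling by library size and without HG replicate 1 or 3 or HGV replicate 3. CLCN7 did not pass in either medium.

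HCN2, a pacemaker channel gene, rose from 0.285, 0.389 and 0.392 CPM in HG to 3.56, 3.47 and 2.97 CPM in HGV and from 0.673, 0.499 and 0.306 CPM in LG to 2.94, 2.63 and 2.78 CPM in LGV. The log2 fold changes were 3.21 (0.25, FDR 6.21e-07) and 2.54 (0.30, FDR 1.27e-05). HCN3 stood at a higher level and did not pass, at 0.12 (FDR 0.484) and 0.37 (FDR 0.0823).

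Among the TRP genes, all 3 TRPV genes, TRPM2 and TRPM4 were higher with VPA in both media, and TRPC1 and TRPM7 passed in neither. TRPV2 rose from 17.2, 22.1 and 21.2 CPM in HG to 26.9, 31.4 and 29.3 CPM in HGV (0.53, 0.13, FDR 0.00428) and by 0.60 (0.15, FDR 0.00541) in LG medium. TRPV4, which responds to swelling and warmth, had 0.897, 1.17 and 1.35 CPM in LG, 1.11, 1.67 and 1.26 in HG, 3.57, 3.83 and 3.71 in LGV and 6.56, 5.37 and 6.38 in HGV, so that LGV and HGV overlapped neither each other nor the untreated groups. Its log2 fold change was 2.17 (0.20, FDR 3.08e-06) in HG medium and 1.69 (0.24, FDR 6.4e-05) in LG medium, and TRPV3, known from skin, had 1.58 (0.20, FDR 4.55e-05) and 2.1 (0.26, FDR 1.82e-05). TRPM2, a calcium-permeable channel opened by oxidative stress, rose from 9, 20 and 8 reads in HG to 41, 75 and 59 in HGV (2.11, 0.35, FDR 0.000359) and from 1, 3 and 7 reads in LG to 27, 15 and 27 in LGV (2.68, 0.50, FDR 0.0006). TRPM4, a sodium-permeable channel opened by calcium, rose by 0.51 (0.14) in HG medium, a call lost without HG replicate 3, and by 0.77 (0.19) in LG medium.

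Glucose alone changed fewer members. Between HG and LG, 49 members were tested, 6 were higher (12.2%) and 11 were lower (22.4%), against 12.0% and 12.7% of the 15452 genes tested. The members' median log2 fold change was 0, with a range from -1.65 to 1.61, and the median of all genes was 0.01. With scaling by library size the split was 6 higher and 7 lower. HG and LG libraries also serve as the controls of the VPA comparisons, so the glucose and VPA values of a gene share samples and are given side by side only.

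The sodium channel genes moved in both directions with glucose. SCN1A, the neuronal channel Nav1.1, had 7.67, 7.84 and 12.3 CPM in LG against 35.5, 19.9 and 20.5 in HG, and 17.5, 10.5 and 14.2 in LGV against 28.4, 16.6 and 27.9 in HGV. Every HG library was above every LG library, and the log2 fold change was 1.46 (0.22, FDR 0.000132). SCN2A, its neighbour on chromosome 2, fell from 3.7, 4.64 and 3.32 CPM in LG to 1.46, 1.26 and 0.98 CPM in HG (-1.64, 0.25, FDR 0.000146). SCN4A was higher in HG, by 1.61 (0.56, FDR 0.0405), at the low levels given above, and this call was lost in a single fit of all libraries and without HG replicate 1 or LG replicate 1 or 2. HCN3 rose from 10.4, 8.66 and 7.91 CPM in LG to 13.0, 16.4 and 15.8 CPM in HG (0.78, 0.17, FDR 0.0034), with exons that overlap those of PKLR on the other strand.

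The falls with glucose included 3 exchangers of the CLC family. CLCN7 fell from 148, 136 and 101 CPM in LG to 60.5, 70.8 and 63.4 CPM in HG, a log2 fold change of -0.96 (0.14, FDR 0.000115). CLCN3 fell from 72.9, 76.8 and 61.1 CPM to 55.0, 43.1 and 42.5 CPM (-0.56, 0.14, FDR 0.00582), and CLCN4 from 13.2, 12.5 and 12.0 CPM to 9.54, 8.1 and 8.48 CPM (-0.51, 0.16, FDR 0.0287). In all 3 the groups did not overlap, though the call of CLCN4 was lost under 6 of the alternatives and that of CLCN3 without HG replicate 3 or LG replicate 1. CLCN7's share of all channel reads, on the CPM scale, was 19.8% in LG and 12.6% in HG.

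Among potassium channels, KCNK13 fell from 6.63 ± 2.18 CPM in LG to 2.07 ± 0.259 CPM in HG (-1.65, 0.25, FDR 0.000141) and KCNMB3 from 16.4 ± 5.27 to 6.03 ± 0.7 CPM (-1.42, 0.21, FDR 0.000129). In both, the lowest LG library, at 4.29 and 10.7 CPM, was above the highest HG library. KCNF1 fell by 1.16 on the log2 scale (0.33, FDR 0.0168), a call lost under 3 alternatives. KCNH2 had -1.58 (0.51, FDR 0.0288), with the groups overlapping in 1 of 9 pairs of libraries, and its call was lost under 5 alternatives. KCNJ14 had -0.92 (0.31, FDR 0.0338) with an overlap of the same size and 5 lost alternatives, and KCNK12, whose reads rose from 6, 13 and 14 to 28, 23 and 14, had 1.09 (0.39, FDR 0.049) and lost its call under 7. The exons of KCNJ14 overlap those of GRWD1 on the same strand, and those of KCNK12 overlap another gene on the other strand.

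The remaining calls of this comparison were CACNA2D4 (-0.67, 0.14, FDR 0.00289), TRPM7 (-0.60, 0.18, FDR 0.0189), TRPM4 (0.65, 0.20, FDR 0.0216) and CACNB4 (0.90, 0.31, FDR 0.0428). CACNA2D4 went from 82.5, 70.2 and 55.5 CPM in LG to 40.2, 46.3 and 42.5 CPM in HG without overlap. TRPM7 overlapped in 1 of 9 pairs of libraries, and the calls of TRPM7, TRPM4 and CACNB4 were lost under 5, 3 and 6 alternatives. Of the 17 calls with glucose alone, 7 held under every alternative run.

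**Figure D4:**
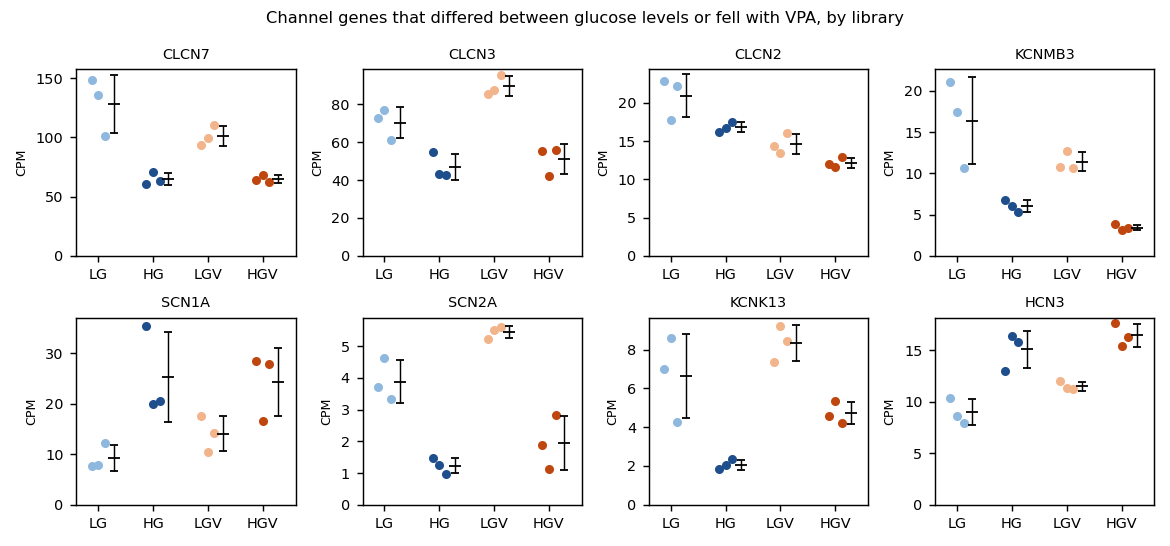
CPM in each library (points, n = 3 per group) with mean and SD (bars) for 8 channel genes that differed with glucose or fell with VPA, on linear y axes starting at 0 and differing between panels. CLCN7, CLCN3, KCNMB3, SCN2A and KCNK13 stand lower in HG than in LG, SCN1A and HCN3 stand higher, and CLCN2 is lower with VPA in both media.

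With VPA present, 13 of 65 members were higher in HGV than in LGV (20.0%) and 12 were lower (18.5%), against 21.2% and 19.5% of 16208 genes. The median was 0.10, and with scaling by library size 15 were higher and 9 lower. Members that VPA had raised went both ways, as KCND1 and KCNJ10, higher with VPA in both media, stood lower in HGV than in LGV. Others stood higher in HGV. SCN4A, with the values given above, differed by a log2 fold change of 2.34 (0.31, FDR 1.78e-05), KCNH6 by 1.99 (0.41, FDR 0.000982), KCNC1 by 1.32 (0.21, FDR 0.000111), TRPM2 by 1.22 (0.30, FDR 0.00404), KCNN1 by 1.07 (0.27, FDR 0.00381) and KCNH3 by 0.99 (0.20, FDR 0.000655). KCNIP4, a potassium channel-interacting protein, rose from 9, 1 and 6 reads in LGV to 13, 28 and 16 reads in HGV (1.68, 0.53, FDR 0.016), with exons that overlap PACRGL on the other strand, and KCNK9 from 17, 6 and 9 to 19, 54 and 24 reads (1.44, 0.44, FDR 0.0143). The call of KCNIP4 was lost without LGV replicate 2, and that of KCNK9 without HGV replicate 2 or LGV replicate 2 or 3. CACNA1G and TRPV4 were higher by 0.81 and 0.70, and SCN1A and HCN3 by 0.77 (0.20, FDR 0.00472) and 0.49 (0.14, FDR 0.00838).

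Of the 12 members lower with VPA present, 9 were also among the 11 that were lower without it. The same overlap over all genes is not given here, so it is not read as a trait of the channel genes. KCNMB3 had 10.8, 12.7 and 10.7 CPM in LGV and 3.8, 3.11 and 3.35 CPM in HGV (-1.75, 0.17, FDR 1.01e-06), beside its -1.42 without VPA. KCNJ14 had -1.57 (0.23, FDR 4.61e-05) and SCN2A -1.51 (0.26, FDR 0.000204), the latter from 5.22, 5.52 and 5.6 CPM to 1.9, 1.12 and 2.82 CPM. CLCN3 (-0.83), KCNK13 (-0.83), CACNA2D4 (-0.68), CLCN7 (-0.66), CLCN4 (-0.66) and TRPM7 (-0.56) were also lower, the call of TRPM7 being lost with scaling by library size. KCNK7 (-1.22, FDR 0.0485), KCND1 (-0.80, FDR 0.0135) and KCNJ10 (-0.39, FDR 0.0287) completed the 12, and their calls were lost under 7, 3 and 6 alternatives.

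**Figure D5:**
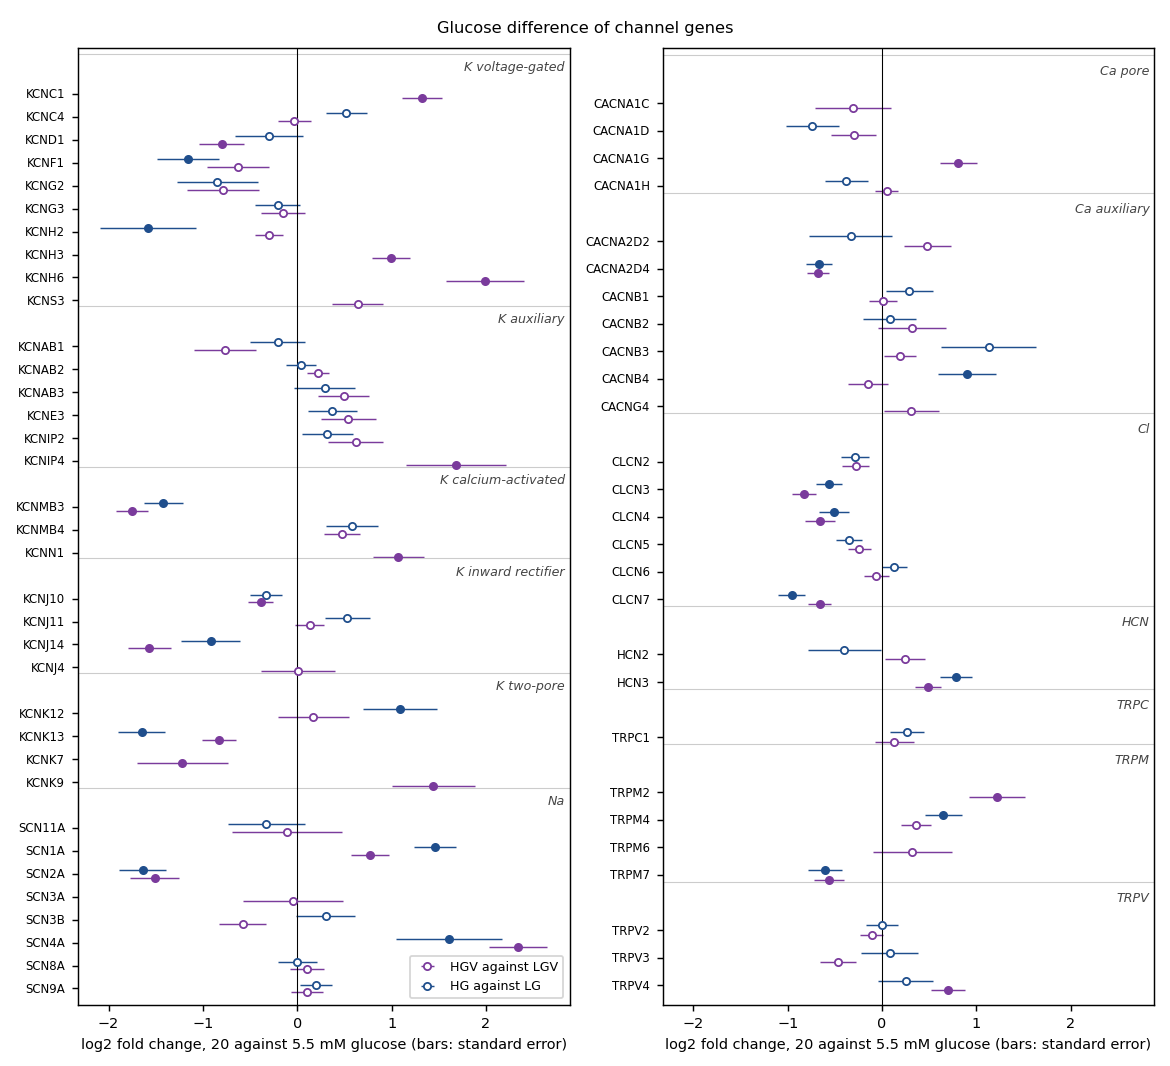
Log2 fold change between 20 and 5.5 mM glucose for channel genes, by family, without VPA (HG against LG) and with VPA (HGV against LGV), with bars for the standard error. Filled points had an FDR of 0.05 or less, genes too low for a comparison have no point in it, and the values reach from -1.75 for KCNMB3 to 2.34 for SCN4A.

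Whether the VPA response differed between the media was tested as an interaction over all 12 libraries. None of the 65 members passed in edgeR, where 0.0427% of the 16389 genes passed. An unadjusted p under 0.05 was found for 8 of the 65 members and for 1852 of the 16389 genes. These shares were similar, so the 8 are not read as a trait of the channel genes. With the DESeq2 Wald test 1 member passed, KCNH3. Its interaction in edgeR was 2.08 on the log2 scale (0.44, FDR 0.0627), and it passed without LG replicate 2 and without LG replicate 3. Other members with an unadjusted p under 0.05 included KCNN1 (2.84, FDR 0.304), CACNG4 (1.79, FDR 0.187), KCNH2 (1.32, FDR 0.304), KCNK13 (0.85, FDR 0.282), CACNB4 (-1.01, FDR 0.289) and SCN3B (-0.85, FDR 0.39). A p that misses the threshold does not show that the responses were alike.

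Promoter windows of 300 bases, 250 before and 50 after the gene start, were compared between the members that VPA raised and the others. The GC box GGGCGG, searched on both strands, was in 34 of the 47 windows matched (72.3%), in 17 of the 20 of members higher with VPA in both media (85.0%) and in 14 of the 20 of members higher in neither (70.0%). It was in 68.9% of the windows of 10327 genes in the count table and in 44.5% of all 27305 RefSeq windows. The median number of CpG was 28.5 in windows of members higher in both media, 23.0 in those higher in neither and 26.0 in those of the genes in the table. REST, a repressor that keeps neuronal genes silent in other cells, binds the RE1 element, and its left block TCAGCAC and right block GGACAG were searched separately on both strands. TCAGCAC was in 2 of the 47 windows (4.26%, against 3.56% for genes in the count table and 4.45% for RefSeq), 0 of the 20 higher in both media and 1 of the 20 in neither. GGACAG was in 9 of 47 (19.1%, against 21.0% and 20.6%), with 6 of 20 (30%) and 1 of 20 (5.0%). A match is a description of letters in a window and not a binding site, and windows without a match say nothing about the factors elsewhere.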

How the data were processed

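The authors trimmed single-end reads of poly(A)-selected RNA, aligned them to GRCh37 with STAR and assigned them to Ensembl genes with featureCounts, and the authors deposited raw counts for 16389 genes averaging at least 10 reads over the 12 libraries. The kit kept strand, but the strand setting of the counting is not given in the sources used here.

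Counts were analysed with edgeR 4.0.16 in R 4.3.3 (TMM, quasi-likelihood F test, no replicate block), separately for the 6 libraries of each comparison and over 12 for the interaction. Genes with a mean of at least 10 reads in the libraries compared were tested, with an FDR over all of them and a threshold of 0.05. Standard errors are the log2 fold change divided by the root of the F statistic. The test was tested on simulated data. Exon lengths and positions came from GENCODE on GRCh37, a different annotation from the one used for counting, so levels per length are approximate. Tables and plots were made with Python 3.11.15, scipy 1.17.1 and matplotlib 3.10.9.

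The members, the lists and the tests were chosen with earlier results of these data known. Genes named were, per comparison, the 10 called members with the largest log2 fold change (for VPA, with the same direction in all 9 pairs of libraries and a group mean of at least 0.5 CPM), those called lower with VPA, those called for the interaction and, in each family, the highest in level and the largest called VPA change. Other members are named to account for the list, and some genes are not reported here, though they are in the counts. Alternatives were DESeq2 size factors, library size, the DESeq2 1.42.0 Wald test, no filter, a filter of 1 CPM in 3 libraries, replicate number as a block, a single fit of all 12 libraries and leaving out each replicate. A filter on the untreated libraries was added after seeing the data. In no comparison did every same-numbered pair of libraries correlate above 0.1 in its deviations from the group means, so the numbers were not taken as pairs. No libraries were duplicates (chi-square per degree of freedom 10.16 to 64.26 within groups).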

Additional observations from a re-analysis of the deposited data

How the results depend on the processing

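With 3 libraries per group and members near 1 CPM, small differences were out of reach, and calls near the threshold rested on single libraries. The counts of members higher with VPA stayed within 1.5 times of 36 and 38 under every alternative run. Of the 39 calls in each medium, 35 in HG medium and 29 in LG medium were lost under no alternative in which the member was tested. A member too low for an alternative was not counted as lost there. The filter on the untreated libraries was left out of this count. For glucose, counted in the same way, 7 of 17 calls held without VPA and 19 of 25 with VPA. Of the values of named genes under the alternatives, 934 kept their side of the threshold, and 55 lost and 12 gained the threshold. Of the values that passed in the main fit or in the alternative, 0 changed direction. Changes of sign among values that passed in neither were not counted.

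The median with VPA in HG medium ran from 0.69 to 0.94 when each replicate was left out, highest without HGV replicate 2. In LG medium the median ran from 0.70 to 0.87 and was 0.91 with scaling by library size. The number lower in LG medium (1) was 0 with library size, 2 with DESeq2, 2 with the replicate block, 3 in a single fit of all libraries and 0 to 4 when each replicate was left out (0 without LG replicate 1 or LGV replicate 2, 4 without LG replicate 3). Between HG and LG, the number higher (6) was 3 with DESeq2 and 2 to 7 when each replicate was left out, 2 or 3 without LG replicate 1 or 2 or any HG replicate. The number lower (11) was 7 with library size and 5 to 12, with 5 without HG replicate 3 or LG replicate 1 and 7 without LG replicate 2. The median was 0.09 with library size and -0.09 to 0.15. Between HGV and LGV the median was 0.19 with library size and 0.02 to 0.16. The interaction gave 1 member with DESeq2 and 0 to 2 when each replicate was left out, 2 without LG replicate 2 and 1 without LG replicate 3. Scaling by library size moved the median of all genes to 0.15 and 0.16 with VPA in HG and LG medium and to 0.11 and 0.1 with glucose without and with VPA. The replicate block otherwise gave 37 higher and 3 lower in HG medium, 39 higher in LG medium, 5 higher and 10 lower between HG and LG and 13 each way between HGV and LGV. Beyond what these constructions fix, the cause was not tested.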

Other observations

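A list of other ion channels and channel partners, made for comparison and also chosen with earlier results known, had 65 genes in the table. Between HGV and HG 29 of 64 were higher (45.3%) and 8 were lower (12.5%), against 25.8% and 20.2% of all genes tested, with a median log2 fold change of 0.28. Between LGV and LG 23 of 65 were higher (35.4%) and 12 were lower (18.5%), against 21.7% and 19.9% of all genes tested, with a median of 0.30. The largest rises in HG medium were those of TMEM63C, a relative of osmosensitive channels, from 0.218 ± 0.0728 to 12.1 ± 0.782 CPM (SD, n = 3, 5.77 on the log2 scale, FDR 7.65e-09), GJB2, a connexin of gap junctions, from 0.0585 ± 0.0262 to 3.0 ± 0.565 CPM (5.58, FDR 2.3e-07), the proton channel gene HVCN1 from 0.394 ± 0.129 to 3.89 ± 0.914 CPM (3.29, FDR 1.95e-06) and the connexin gene GJC1 from 2.51 ± 0.489 to 20.1 ± 2.74 CPM (3.00, FDR 8.03e-08). All 4 also passed as higher in LG medium, with log2 fold changes of 6.19, 4.91, 4.09 and 3.26. Chosen after their values were seen, the falls furthest from 0 in HG medium were those of BEST4 (-1.90), RYR3 (-1.69) and ORAI3 (-1.40), and all 3 passed as lower in LG medium too. With glucose alone 9 of 60 were higher (15.0%) and 13 lower (21.7%), against 12.0% and 12.7% of all genes tested. With VPA present 12 of 63 were higher (19.0%) and 12 lower (19.0%), near the 21.2% and 19.5% of all genes tested.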
